A study of Mus musculus with 11 samples.

Results

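The comparison described here is that of SPI-24 with its vehicle, DMSO, after 4 days of treatment. It consisted of the 4 libraries labelled SPI-24 and the 4 labelled DMSO, 8 of the 11 libraries of the study, and was read across 16768 of the 20957 genes in the table. SPI-24 is a small molecule from a set of inhibitors of the interaction between the elongation factor Spt5 and RNA polymerase II. All mice, those given DMSO included, were BACHD mice on the FVB/N background, which carry a full-length human mutant huntingtin transgene with a mixed CAA-CAG repeat beside their own Htt genes, so no library stood for an unaffected mouse. SPI-24 or DMSO was injected under the skin on 4 consecutive days, and punches of striatum were taken 6 h after the last dose. The labels name each library a biological replicate but give neither the dose nor the age or sex of the animal behind a library. Whether each library is a separate animal is not stated further, so the errors below measure the spread between libraries, part of which may be technical.

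Spt5, encoded by Supt5, forms with Spt4 the DSIF complex, which travels with RNA polymerase II. DSIF first holds the polymerase close to the start of a gene and, once phosphorylated, helps it through the gene body. Spt4 and Spt5 have been linked to the transcription of genes with long CAG repeats, which code for stretches of glutamine such as the one expanded in mutant huntingtin. The striatum, made up largely of medium spiny neurons, is the brain region that degenerates first in Huntington's disease. The values below are therefore given for the most changed genes, for genes with CAG runs, for genes of different length, and for 39 lists of genes that cover transcription, protein synthesis, metabolism, stress responses, signalling and cell structure.

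The 8 libraries held between 13.9 M and 33.8 M reads counted in genes. SPI-24 library 4 stood apart: 16263 genes had a read in it, although it was among the deepest at 26.0 M reads, and 1464 of the genes tested were at 0 there, against at most 149 in each of the other 7 libraries. The first principal component, with 49.3% of the variance of the 8 libraries, separated this library from all others. The second component, with 20.9%, had SPI-24 libraries 2 and 3 at one end. These 2 libraries had the lowest mean log2 level of 16 medium spiny neuron markers, 8.63 and 8.59, against 10.9 and 12.1 in SPI-24 libraries 1 and 4 and from 10.4 to 12.4 in DMSO. The same 2 libraries had the highest levels of 11 markers of thalamic neurons, 10.3 and 11.1, against 9.30 and 9.49 in SPI-24 libraries 1 and 4 and 7.75 to 9.92 in DMSO. All 11 had a higher mean log2 level with SPI-24 than with DMSO, with a median difference of 1.39. Of the 16 medium spiny markers 0 were above 0 in log2 difference, with a median of -1.11. Of 7 cholinergic interneuron markers 0 were above 0, with a median of -2.34, and 2 of them were at 0 in a library. The summed level of 8 ependymal markers ran from 286.5 to 2802 normalized counts with SPI-24 and from 1815 to 2596 with DMSO, and 10 choroid plexus markers from 2591 to 135382 with SPI-24 and from 73155 to 194509 with DMSO. In tissue punches, fewer cells of a type and less RNA per cell cannot be told apart, and the part of the cell makeup in the differences below was not tested except where a marker score is named as a covariate.

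In the main fit, with limma, no gene was called between SPI-24 and DMSO. A gene was called when limma's Benjamini-Hochberg adjusted p was below 0.05 and its fold change at least 2, and this left 0 genes higher and 0 genes lower (0% of 16768 in each direction), with a smallest adjusted p of 0.975 in limma. At an unadjusted p below 0.05, limma had 625 genes, 3.73% of those tested, of which 313 were higher and 312 lower. This count moved with single libraries, to 1428 without SPI-24 library 4, 1221 without DMSO library 1, 981 without SPI-24 library 1, 371 without DMSO library 4, 317 without SPI-24 library 3 and 257 without DMSO library 2, and it was 3100 with sample quality weights. With no term but the group, the counts of called genes were also 0 with edgeR, where 539 genes had an unadjusted p below 0.05, and with DESeq2, where 834 did. When the replicate numbers of the labels were added as a block, DESeq2 called 16 genes higher and 5 lower, whereas limma and edgeR called 0. Every gene that the paper lists as changed by short-term SPI-24 treatment was among these DESeq2 calls. Differences below are given on the log2(normalized count + 1) scale as SPI-24 minus DMSO, with the standard error of the limma fit (4 libraries per group), and none of them passed the adjusted test of that fit.

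The typical difference was small. The median of all genes was -0.02 on the log2 scale, with quartiles at -0.23 and 0.13, and 10961 genes (65.4%) had a 95% interval that lay wholly within 2-fold either way. How closely a change was bounded depended on the level of the gene. Of the 3527 genes with a mean of at least 1000 normalized counts, 94.3% were bounded within 2-fold, and the median interval reached 0.32 to either side of the estimate on the log2 scale. Of the 3995 genes with a mean below 50, 6.78% were so bounded, and the median interval reached 1.64 to either side. A 2-fold change of most low genes was thus not detectable at the spread of these libraries.

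Past a 2-fold difference lay 198 higher genes (1.18%) and 1109 lower genes (6.61%). Of the lower genes, 721 were at 0 in SPI-24 library 4, and 222 had a mean of at least 50 normalized counts, against 60 of the higher genes. Without SPI-24 library 4 there were 284 higher and 687 lower genes past 2-fold. The split also moved with the processing, to 407 higher and 410 lower after quantile normalization. With edgeR, whose filter and model also differ, it was 280 higher and 451 lower.

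Separation of all libraries was used as a second description. All 4 SPI-24 values lay above all 4 DMSO values for 166 genes (0.990%), and all 4 lay below for 137 genes (0.817%). The higher genes of this kind had a median log2 difference of 0.49 and the lower ones of -1.11. Among the genes with a mean of at least 1000, 27 were higher and 4 lower without overlap, whereas among the genes below 50 these were 43 and 80. The median SD within groups was 0.32 on the log2 scale for SPI-24 and 0.32 for DMSO over all genes, but 1.15 for SPI-24 and 0.55 for DMSO below a mean of 50, and 0.19 for SPI-24 and 0.23 for DMSO from a mean of 1000.

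**Figure D1:**
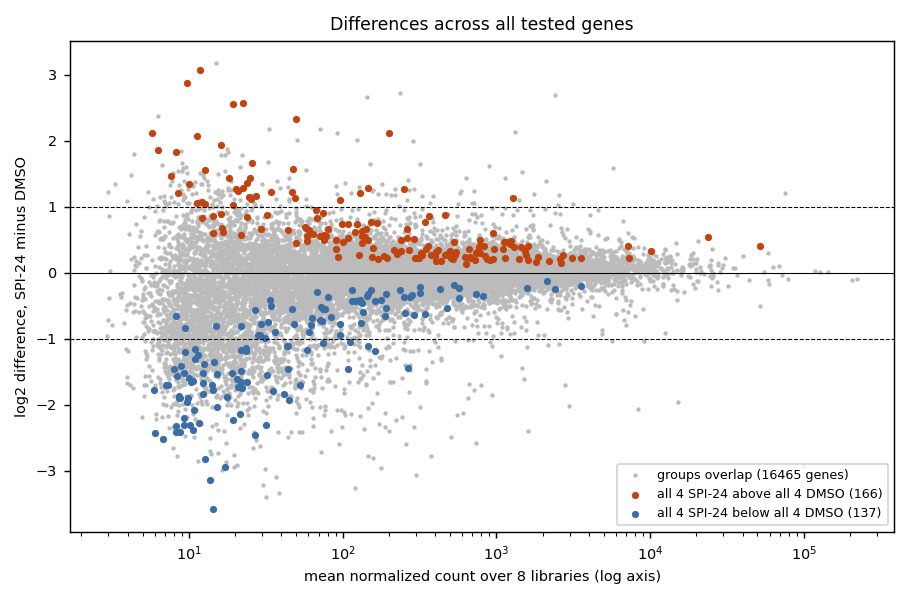
Log2 difference, SPI-24 minus DMSO, against the mean normalized count over 8 libraries (log axis), 1 point per gene tested; coloured points are the 166 genes with all SPI-24 libraries above all DMSO libraries and the 137 with all below, and dashed lines mark 2-fold. Most points of high mean lie near 0, and the lower points beyond 2-fold crowd at low means.

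The largest difference among genes with a mean of at least 50 and no overlap was that of Fos (chromosome 12, 85473890 to 85477273, GRCm38), an immediate early gene that codes for a subunit of the AP-1 transcription factor. Its normalized counts were 337, 119, 129 and 767 in SPI-24 libraries 1 to 4, against 79.3, 43.6, 100.4 and 30.9 in DMSO libraries 1 to 4. SPI-24 libraries 1 and 4 were far above the rest, while libraries 2 and 3 exceeded the highest DMSO library by less. The log2 difference was 2.11 ± 0.58 (95% interval 0.85 to 3.37). Dusp1 (chromosome 17, 26505590 to 26562128), a phosphatase that switches off MAP kinases and is itself an immediate early gene, had 652, 459, 501 and 789 in the SPI-24 libraries, against 368, 259, 425 and 254 in the DMSO libraries. The same 2 SPI-24 libraries were the highest for Dusp1, and its log2 difference was 0.88 ± 0.23. Rreb1, a zinc finger transcription factor of the Ras pathway, had 1123, 2314, 2550.4 and 1166 in the SPI-24 libraries, against 699.7, 936, 874 and 587 in the DMSO libraries. Here libraries 2 and 3 were the high ones, and the log2 difference was 1.13 ± 0.29. Pmaip1, which codes for the pro-apoptotic protein Noxa and was the single member of 22 p53 targets without overlap, had 78.7, 65.5, 93.7 and 157 in the SPI-24 libraries, against 42.5, 35.2, 65.1 and 59.9 in the DMSO libraries. Library 4 was the highest, and the lowest SPI-24 library lay just above the highest DMSO library. The log2 difference of Pmaip1 was 0.91 ± 0.32, whereas the median of the p53 targets was -0.03. Pmaip1 alone made 4.55% of the p53 targets higher without overlap, beside 0.990% of all genes.

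For Fos and Dusp1, the sequences from 250 bases before to 50 bases after their starts are shown (RefSeq, GRCm38.p6). Matches to TGACG, the core of the cyclic AMP response element, are in capitals on either strand. A shared cause of their levels was not tested.
Fos, chr12:85473640-85473939, plus strand: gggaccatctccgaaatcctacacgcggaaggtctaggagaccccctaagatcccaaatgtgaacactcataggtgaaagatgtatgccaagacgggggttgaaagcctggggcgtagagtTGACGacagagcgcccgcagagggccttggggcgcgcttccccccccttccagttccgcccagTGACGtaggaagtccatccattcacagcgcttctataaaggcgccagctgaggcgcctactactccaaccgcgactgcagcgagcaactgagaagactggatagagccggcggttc
Dusp1, chr17:26508423-26508722, minus strand: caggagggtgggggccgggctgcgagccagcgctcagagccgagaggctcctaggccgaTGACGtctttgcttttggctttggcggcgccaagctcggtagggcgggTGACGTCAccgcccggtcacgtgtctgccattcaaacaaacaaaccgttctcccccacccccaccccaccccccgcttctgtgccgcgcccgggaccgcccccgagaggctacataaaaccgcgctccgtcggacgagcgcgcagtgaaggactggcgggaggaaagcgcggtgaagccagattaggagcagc
Fos held 2 matches and Dusp1 held 3, of which 2 overlapped on opposite strands in the full element. The pattern is short and was present in 23.0% of 27025 genes with a listed promoter. Of the genes with a listed promoter, it was in 3 of 7 among the 10 largest differences and in 2 of 7 among the 10 most negative. A match describes these letters and says nothing of binding.

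Genes of the extracellular matrix made up 4 of the 10 largest differences. Col15a1, a collagen of basement membrane zones, had 226, 348, 639 and 224 in the SPI-24 libraries, against 165, 88.1, 186 and 123 in the DMSO libraries. Library 3 was the highest, and all SPI-24 libraries exceeded the highest DMSO library. Its log2 difference was 1.26 ± 0.35 (95% interval 0.50 to 2.02). Fbln1, the matrix glycoprotein fibulin-1, had 125, 116, 169 and 332 in the SPI-24 libraries, against 101, 60.3, 72.8 and 63.6 in the DMSO libraries. Its log2 difference was 1.20 ± 0.37, with library 4 well above the others. Col12a1, a collagen that binds to the surface of fibrils, had 84.1, 134, 142 and 171 in the SPI-24 libraries, against 47.1, 49.1, 78.3 and 67.4 in the DMSO libraries. Col5a2, a chain of the fibrillar collagen V, had 78.7, 75.9, 91.5 and 106 in the SPI-24 libraries, against 39.1, 49.1, 57.4 and 51 in the DMSO libraries. Both were low, with each SPI-24 library above each DMSO library, and their log2 differences were 1.11 ± 0.34 and 0.83 ± 0.29.

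The whole list of 47 collagen, laminin and matrix genes did not share this direction. Its median was 0.07, beside -0.02 for all genes, with 27 members above 0 and 20 below, and 4 members were higher without overlap and 0 lower (8.51% and 0%, beside 0.990% and 0.817% of all genes). Differences of the members ran from -2.03 for Col4a4 to 1.26 for Col15a1. Markers of other cells moved beside these genes. The summed level of 8 meningeal fibroblast markers, of which 4 are also on the matrix list, ran from 900.4 to 1181 normalized counts with SPI-24 and from 476 to 870.3 with DMSO, and 6 of the 8 were above 0 in log2 difference. The mean log2 level of the same 8 markers did overlap, from 6.03 to 6.59 with SPI-24 and from 5.56 to 6.36 with DMSO. One of these markers, Slc6a13, a transporter of GABA, was itself among the 10 largest, with 202, 209, 187 and 208 in the SPI-24 libraries, against 165, 75.1, 89.3 and 40.2 in the DMSO libraries. The SPI-24 libraries lay close together and the DMSO libraries were spread, and the log2 difference was 1.29 ± 0.34. Acta2, the actin of smooth muscle and 1 of 8 markers of mural cells, had 434, 429, 434 and 564 in the SPI-24 libraries, against 361, 206, 344 and 164 in the DMSO libraries, with a log2 difference of 0.86 ± 0.23. The summed level of the mural markers was from 4733 to 4934 with SPI-24 and from 3227 to 4855 with DMSO, so that these groups overlapped, and 7 of 8 were above 0. Of the 8 fibroblast markers 1, Igf2, was at 0 in a library, and the part of such cells in the collagen values was not tested.

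Lmod1, an actin-nucleating protein of smooth muscle, was the member of the list of muscle actin, myosin and troponin genes without overlap. In this list 1 of 24 was higher and 0 lower in this way (4.17% and 0%, beside 0.990% and 0.817% of all genes), and the median was 0.04. Lmod1 had 38.8, 25.9, 23.7 and 48.2 in the SPI-24 libraries, against 13.8, 22.2, 12.1 and 5.61 in the DMSO libraries, low counts in every library, and a log2 difference of 1.36 ± 0.55.

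**Figure D2:**
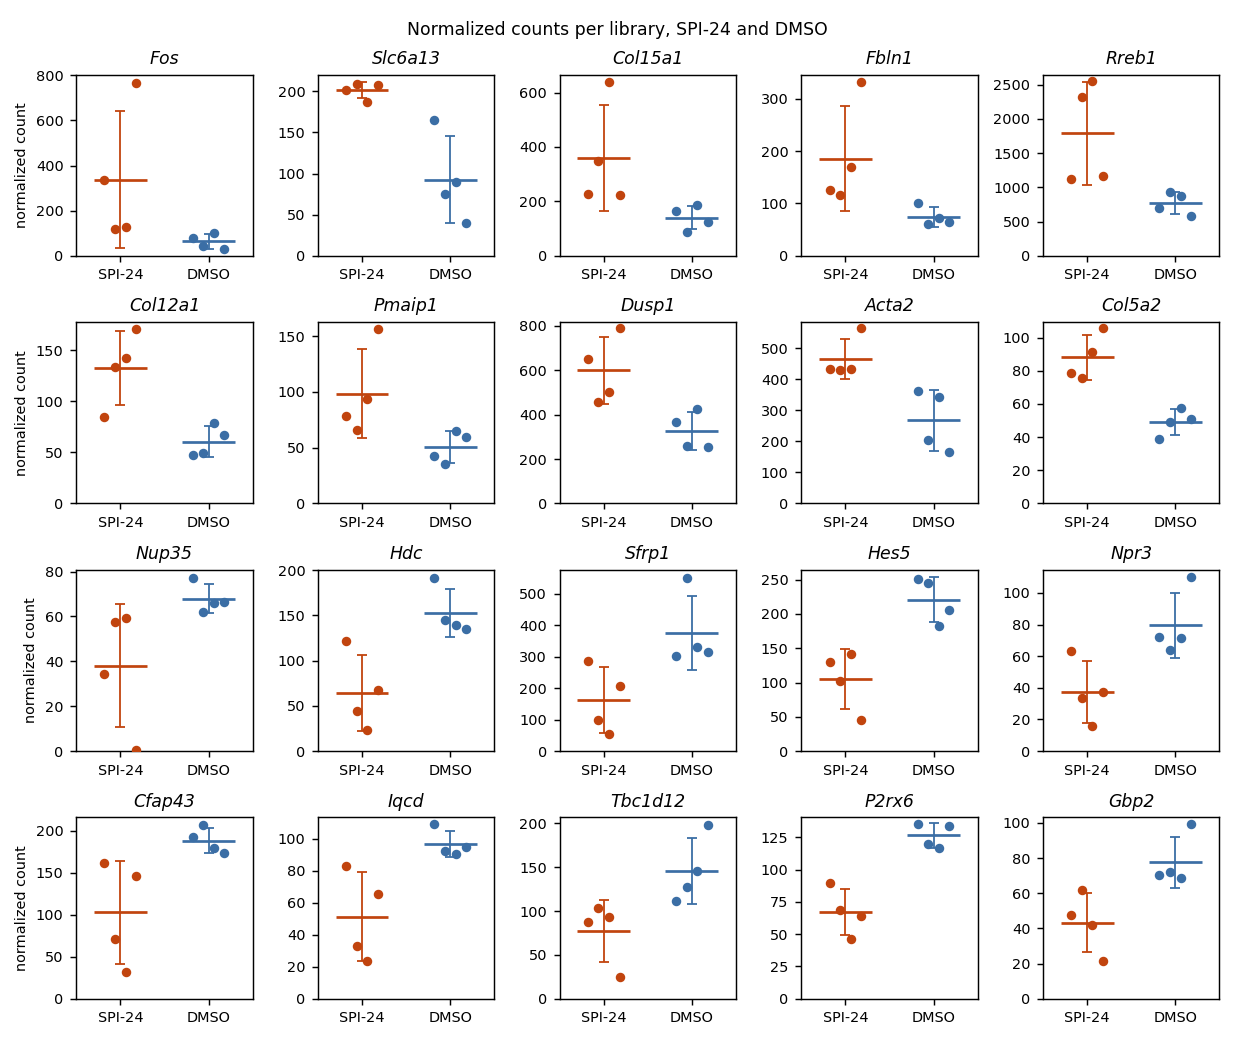
Normalized counts of the 10 genes with the largest and the 10 with the most negative log2 difference among genes with a mean of at least 50 and no overlap, SPI-24 libraries (left) and DMSO libraries (right); points are libraries, long lines means and bars SD (n = 4 each). The groups do not touch in any panel, by the way the genes were chosen, and the SPI-24 points spread widely for Fos (119 to 767) and Nup35 (0.600 to 59.2).

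Of the 10 most negative differences, several followed the libraries low in medium spiny and ependymal markers. Hdc, histidine decarboxylase, which makes histamine, had 122, 44, 23.7 and 68 in the SPI-24 libraries, against 192, 145, 139 and 135 in the DMSO libraries. Sfrp1, a secreted antagonist of Wnt ligands, had 287, 100, 52.8 and 206 in the SPI-24 libraries, against 301, 551, 331 and 315 in the DMSO libraries. In both, SPI-24 libraries 2 and 3 were the lowest and library 1 was close to the DMSO range, and the log2 differences were -1.46 ± 0.42 and -1.44 ± 0.44. Cfap43, a protein of motile cilia, had 162, 71.5, 32.3 and 146 in the SPI-24 libraries, against 192, 207, 179.8 and 174 in the DMSO libraries. Iqcd, a component of the ciliary dynein regulatory complex, had 83, 32.8, 23.7 and 65.6 in the SPI-24 libraries, against 109, 92.7, 90.5 and 95 in the DMSO libraries. Npr3, the clearance receptor of natriuretic peptides, had 63.6, 33.6, 16.2 and 37.3 in the SPI-24 libraries, against 72.4, 64, 71.7 and 110.0 in the DMSO libraries. All 3 were again lowest in libraries 2 and 3, as were the ependymal and choroid plexus markers, and their log2 differences were -1.11 ± 0.42, -1.07 ± 0.37 and -1.18 ± 0.43. Hdc is also 1 of 8 markers of hypothalamic neurons, whose summed level ran from 299.8 to 1184 with SPI-24 and from 513 to 966 with DMSO.

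The other negative differences had a different order. Nup35, a nuclear pore protein, had 34.5, 57.8, 59.2 and 0.6 in the SPI-24 libraries, against 77, 62.1, 66.2 and 66.4 in the DMSO libraries, so that the value near 0 in library 4 weighed most in its log2 difference of -1.70 ± 0.93. Hes5, a transcriptional repressor induced by Notch, had 130.5, 102, 142 and 45.1 in the SPI-24 libraries, against 250.5, 246, 182 and 206 in the DMSO libraries, with a log2 difference of -1.18 ± 0.36. It was the single member without overlap among 31 Notch and Hedgehog genes (3.23% lower, beside 0.817% of all genes), whose median was -0.03. Tbc1d12, a protein with a Rab GTPase-activating domain, had 87.3, 103, 93.7 and 24.7 in the SPI-24 libraries, against 111, 127, 146 and 198 in the DMSO libraries, and Gbp2, an interferon-induced GTPase, had 47.4, 62.1, 42 and 21.7 in the SPI-24 libraries, against 70.1, 72.3, 68.4 and 99.2 in the DMSO libraries. SPI-24 library 4, the one with many genes at 0, was the lowest for Nup35, Hes5, Tbc1d12 and Gbp2. P2rx6, a subunit of ATP-gated channels, had 89.5, 69, 46.3 and 63.8 in the SPI-24 libraries, against 136, 119.6, 117 and 133 in the DMSO libraries, with a log2 difference of -0.94 ± 0.23 and the smallest standard error of the 10.

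Genes of high level separated by smaller amounts, and a few were picked after their values had been seen. The long noncoding RNA Meg3, which comes from an imprinted locus and is abundant in neurons, had 54304, 59124, 65164 and 58833 in the SPI-24 libraries, against 48556, 43524, 42354 and 44736 in the DMSO libraries. Its log2 difference was 0.41 ± 0.11, and all 8 libraries had high counts. Tcea2, a paralogue of the elongation factor TFIIS that rescues stalled polymerase, had 1267, 1357, 1381 and 1271 in the SPI-24 libraries, against 1242, 744, 1109.6 and 822 in the DMSO libraries, where DMSO library 1 nearly reached the SPI-24 range. Its log2 difference was 0.46 ± 0.15. Txn1, thioredoxin, a reductant of protein disulphides, had 1311, 1378, 1710.3 and 1559 in the SPI-24 libraries, against 1271, 958, 1121 and 1197 in the DMSO libraries, with a log2 difference of 0.39 ± 0.13. In the other direction, P2ry13, a purinergic receptor found on microglia, had 225, 273, 206 and 202 in the SPI-24 libraries, against 342, 335, 328 and 404 in the DMSO libraries, with a log2 difference of -0.64 ± 0.19. The 8 microglial markers had 0 members above 0 and a median of -0.21, and their summed level was from 4723 to 6845 with SPI-24 and from 6187 to 7204 with DMSO.

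The medians of the gene lists moved little. Those of 33 of 39 lists were within 0.1 of 0, and the extremes were -0.25 and 0.12. Single members could still differ in either direction. At an unadjusted p below 0.05 in limma were 13 of 47 matrix, 11 of 55 Wnt and 7 of 29 ionotropic glutamate receptor genes. The share of all genes was 3.73%, and 0 of 44 potassium channels and 0 of 34 protocadherins reached it. Some lists were hardly bounded within 2-fold, such as metabotropic glutamate and serotonin receptors (2 of 19) and muscle genes (7 of 24). In 30 lists no member was without overlap, and over all lists 9 of 1236 members tested were higher and 6 lower in this way, beside 0.990% and 0.817% of all genes. In limma no member of any list was called. In DESeq2 with the replicate block, 3 of 36 calcium channel and store genes, 1 of 55 Wnt genes and 1 of 31 MAP kinase feedback genes were called higher. Beside these stood 12 of all 16768 genes tested. Among the genes called higher in that fit, Cacna1g, Atp2a1 and Wnt3 were highest in SPI-24 libraries 2 and 3.

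**Figure D3:**
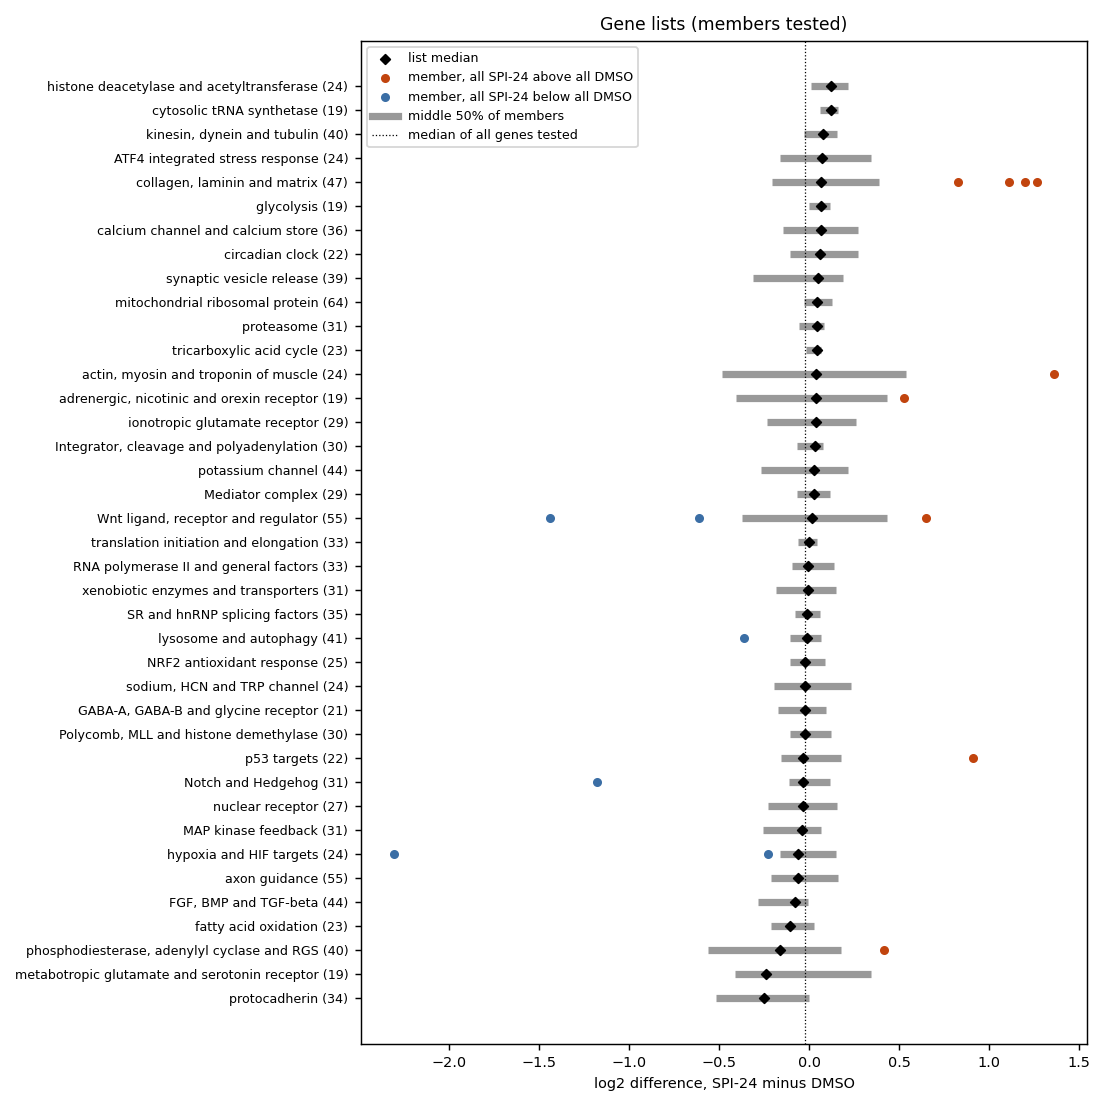
Log2 difference, SPI-24 minus DMSO, of 39 gene lists ordered by their median, with the number of members tested in brackets; black diamonds are medians, grey bars the middle 50% of members, and coloured points the members whose groups did not overlap (9 higher, 6 lower). The medians run from -0.25 to 0.12, and the 4 separated matrix genes lie far from the median of their list.

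In the transcription machinery, in which Spt5 acts, the medians of the lists stayed near 0. Supt5 had 3403, 2878, 2792 and 2943 in the SPI-24 libraries, against 3379, 3076, 2485 and 2479 in the DMSO libraries, and Supt4a, its small partner, had 504, 387, 382 and 538 in the SPI-24 libraries, against 447, 336, 418 and 354 in the DMSO libraries. Both overlapped between groups, with log2 differences of 0.08 ± 0.12 (95% interval -0.19 to 0.35) and 0.21 ± 0.16 (-0.12 to 0.55). Of 33 subunits of RNA polymerase II and general factors, 30 were bounded within 2-fold and the median was 0.00. Their single differences ran from -0.93 to 0.29. Of 29 Mediator subunits 28 were so bounded (median 0.03), as were all 30 genes of Integrator, cleavage and polyadenylation (median 0.03) and all 35 SR and hnRNP splicing factors (median -0.01). The members with the largest moderated t were Polr2j, a polymerase subunit (log2 difference 0.29 ± 0.15), Med26 (0.35 ± 0.19), Ints13 (0.38 ± 0.24) and Srsf4 (-0.35 ± 0.18). Ints13 had 368, 315, 377 and 721 in the SPI-24 libraries, against 269, 354, 326 and 348 in the DMSO libraries, with library 4 far above the rest. Among chromatin enzymes, the 24 histone deacetylases and acetyltransferases had the highest median, 0.12, with 18 above 0 and none without overlap. Hdac10, a polyamine deacetylase, had 449, 439.6, 397 and 446 in the SPI-24 libraries, against 406, 336, 352 and 329 in the DMSO libraries, with a log2 difference of 0.29 ± 0.13. The 30 Polycomb, MLL and histone demethylase genes had a median of -0.02, with Kdm6b, an H3K27 demethylase, at 0.33 ± 0.15.

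The list medians of protein synthesis and breakdown were likewise near 0. The 19 cytosolic tRNA synthetases had a median of 0.12, with 18 above 0, 1 below, and all bounded within 2-fold. The list medians of single libraries, taken against the DMSO mean, ran from 0.04 to 0.24 with SPI-24 and from -0.06 to 0.18 with DMSO, so that DMSO library 1 lay within the SPI-24 range. Iars, the isoleucine enzyme, had 809, 914, 841 and 1011 in the SPI-24 libraries, against 616, 739, 878 and 808 in the DMSO libraries, and its groups overlapped. The 33 translation factors (median 0.00), 64 mitochondrial ribosomal proteins (0.05) and 31 proteasome subunits (0.04) had no member without overlap. Their leading members were the initiation factor Eif4b (-0.26 ± 0.12), the ribosomal protein Mrps12 (0.34 ± 0.14) and the proteasome lid subunit Psmd8 (0.20 ± 0.11) on the log2 scale. The 41 lysosome and autophagy genes had a median of -0.01, with 19 above 0 and 22 below, and all were bounded within 2-fold.

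In metabolism, 19 glycolytic genes (median 0.07) and 23 genes of the tricarboxylic acid cycle (0.04) were all bounded within 2-fold. Gpi1, glucose-6-phosphate isomerase, was at 0.17 ± 0.12 and Idh2, the mitochondrial isocitrate dehydrogenase, at -0.20 ± 0.14. The 23 genes of fatty acid oxidation had a median of -0.10, with 16 below 0, and Acaa2, the last enzyme of the mitochondrial cycle, had 585, 377, 362 and 445 in the SPI-24 libraries, against 633, 795, 578 and 471 in the DMSO libraries. Its groups overlapped through SPI-24 library 1, and its log2 difference was -0.49 ± 0.19.

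Stress responses showed single genes rather than lists. The 24 ATF4 targets had a median of 0.07 and the 25 NRF2 targets of -0.02, with Slc7a3, a carrier of cationic amino acids, at 0.74 ± 0.30 and G6pdx, the first enzyme of the pentose phosphate pathway, at 0.34 ± 0.16, both with overlap. Of 24 hypoxia and HIF targets (median -0.06), 2 were lower without overlap, beside 0.817% of all genes. Car9, a carbonic anhydrase, had 11.9, 1.72, 0 and 3.01 in the SPI-24 libraries, against 18.4, 18.5, 13.2 and 14.5 in the DMSO libraries, counts so low that its log2 difference of -2.30 ± 0.80 depended on the pseudocount. Egln1, an oxygen-sensing prolyl hydroxylase, had 1406, 1427, 1525 and 1485 in the SPI-24 libraries, against 1613, 1754, 1739 and 1739 in the DMSO libraries. Its difference was small, -0.23 ± 0.09, and its values were tight. The 31 xenobiotic enzymes and transporters, a class that a foreign compound can induce, had a median of -0.01 with none without overlap, and Ephx2, soluble epoxide hydrolase, was at -0.41 ± 0.19.

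Lists of neuronal adhesion and signalling had the lowest medians. The 34 protocadherins had the lowest median, -0.25, with 24 below 0, and 10 were bounded within 2-fold. Their library medians ran from -0.26 to -0.04 with SPI-24 and from -0.38 to 0.34 with DMSO, so the spread of the controls covered all SPI-24 libraries. Pcdh10 had 1029.6, 922, 1099 and 1168 in the SPI-24 libraries, against 889, 1538, 1262 and 1825 in the DMSO libraries. The 19 metabotropic glutamate and serotonin receptors had a median of -0.24, with Htr2a, the serotonin 2A receptor, at -1.39 ± 0.53, and their library medians spanned from -0.62 to 0.51 with SPI-24 and from -0.48 to 0.47 with DMSO. The 40 phosphodiesterase, adenylyl cyclase and RGS genes had a median of -0.16 but held a higher member without overlap, Adcy6 (2.5%, beside 0.990% of all genes). Adcy6, an adenylyl cyclase that calcium inhibits, had 860.4, 879, 1035 and 827 in the SPI-24 libraries, against 727, 603, 762 and 608 in the DMSO libraries, with a log2 difference of 0.42 ± 0.13. Adra2b, an alpha-2 adrenergic receptor, was the member of its list of 19 receptors without overlap (5.26% higher, beside 0.990% of all genes). It had 106, 107, 182 and 116 in the SPI-24 libraries, against 98.8, 98.3, 101 and 55.2 in the DMSO libraries, and a log2 difference of 0.53 ± 0.38. The other 6 libraries lay between SPI-24 library 3 and DMSO library 4, close together.

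Several of the largest differences in channel and axon genes followed the thalamic markers instead. Cacna1g, a T-type calcium channel strong in thalamus, had 2399, 3827, 5969 and 2007 in the SPI-24 libraries, against 1688, 873, 2765 and 1025 in the DMSO libraries. Ntng1, netrin-G1, itself 1 of the 11 thalamic markers, had 1147, 2527, 4181 and 857 in the SPI-24 libraries, against 827, 298, 1588 and 386 in the DMSO libraries. Both were highest in SPI-24 libraries 2 and 3, with log2 differences of 1.18 ± 0.39 and 1.52 ± 0.58. Gabbr2, a subunit of the GABA-B receptor, had 4661, 7676, 9795 and 3285 in the SPI-24 libraries, against 4703, 3146, 4755 and 3837 in the DMSO libraries and the same order. Kcna5, Trpm3 and Sv2c, a voltage-gated potassium channel, a TRP channel and a synaptic vesicle protein of the basal ganglia, had the opposite order, lowest in libraries 2 and 3, with log2 differences of -1.66 ± 0.78, -0.94 ± 0.38 and -1.11 ± 0.42. Trpm3, for instance, had 430.2, 153, 189.6 and 438 in the SPI-24 libraries, against 532, 660.2, 561 and 377 in the DMSO libraries.

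Among growth and patterning signals, the 55 Wnt genes had a median of 0.02, with 1 higher and 2 lower members without overlap, beside 0.990% and 0.817% of all genes. These were Sfrp4, a secreted Wnt antagonist like Sfrp1, with 67.9, 52.6, 40.9 and 54.2 in the SPI-24 libraries, against 40.2, 24.1, 33.1 and 38.8 in the DMSO libraries, with a log2 difference of 0.65 ± 0.30, and on the lower side Sfrp1 and Wnt7a. Wnt7a, a ligand that acts on brain vessels and synapses, had 256, 223, 253 and 101 in the SPI-24 libraries, against 313, 295, 268 and 325 in the DMSO libraries. Library 4 was far the lowest, and the log2 difference was -0.61 ± 0.27. The 44 FGF, BMP and TGF-beta genes had 33 members below 0 and a median of -0.08, with Fgf11, an FGF that stays in the cell, at -0.49 ± 0.18, and the 31 genes of MAP kinase feedback had a median of -0.04, with Spred1, an inhibitor of Ras signalling, at -0.59 ± 0.22. The remaining lists had no member without overlap, and their leading members were the scaffold Dlg1 (-0.74 ± 0.25) among ionotropic glutamate receptor genes, Kif5a (-0.50 ± 0.18) among motor and tubulin genes, the clock output factor Dbp (-0.30 ± 0.14) among clock genes and the lipid-sensing Pparg (-1.71 ± 0.83, at 0 in library 4) among nuclear receptors. Kif5a, a motor of axonal transport, had 52515, 41432, 31873 and 46894 in the SPI-24 libraries, against 47709.8, 67546, 65107 and 62157 in the DMSO libraries, so that SPI-24 library 1 lay above DMSO library 1.

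Gene length was examined since Spt5 acts on elongation. The median difference was -0.03 for 5050 genes of up to 10 kb, -0.02 for 4976 genes of 10 to 30 kb, -0.02 for 4396 genes of 30 to 100 kb and -0.03 for 2324 genes of over 100 kb. Single libraries did differ by length. In SPI-24 library 1 the median deviation from the DMSO mean was 0.11 for the shortest class and -0.09 for the longest. In DMSO library 1 these were 0.17 and -0.19, and in DMSO library 4 they were -0.06 and 0.14. The tilt with length was thus at least as wide among the DMSO libraries as among the SPI-24 libraries. The share of genes higher without overlap was 1.25% in the shortest class and 0.818% in the longest, and the share lower was 0.950% and 0.602%.

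**Figure D4:**
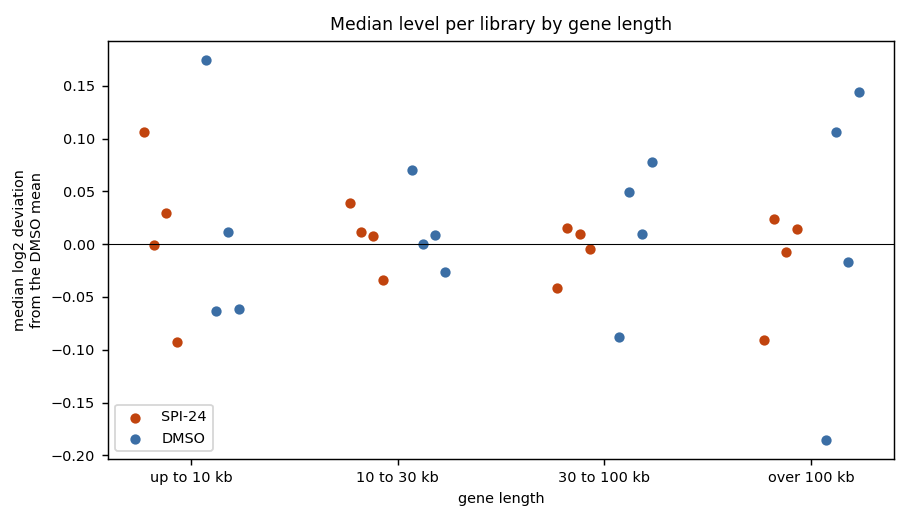
Median log2 deviation from the mean of the DMSO libraries, by gene length class, with 1 point per library (SPI-24 left, DMSO right in each class). The points of both groups overlap in all 4 classes, and DMSO library 1 has the highest point for short genes, 0.17, and the lowest for long genes, -0.19.

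Genes with natural CAG or CAA runs were the last class. In the coding sequences of the GENCODE annotation, 118 genes had a run of at least 8 of these codons, and 102 of them were tested. Some of the longest runs are shown as natural mouse examples, although they are much shorter than the expanded repeat of the transgene. The run is in capitals between 12 bases on either side, beside the short run of mouse Htt (GRCm38).
Maml2, chromosome 9, 13297957 to 13709388, plus strand, codons 586 to 631: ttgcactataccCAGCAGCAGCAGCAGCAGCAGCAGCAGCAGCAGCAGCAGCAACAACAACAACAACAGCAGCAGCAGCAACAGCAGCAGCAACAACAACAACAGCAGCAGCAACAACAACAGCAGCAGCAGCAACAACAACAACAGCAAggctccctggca
Foxp2, chromosome 6, 14901349 to 15441977, plus strand, codons 152 to 191: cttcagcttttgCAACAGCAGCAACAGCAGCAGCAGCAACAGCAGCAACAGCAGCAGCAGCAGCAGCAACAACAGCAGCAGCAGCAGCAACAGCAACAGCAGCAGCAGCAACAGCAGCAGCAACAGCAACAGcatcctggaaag
Foxp1, chromosome 6, 98925338 to 99522721, minus strand, codons 71 to 107: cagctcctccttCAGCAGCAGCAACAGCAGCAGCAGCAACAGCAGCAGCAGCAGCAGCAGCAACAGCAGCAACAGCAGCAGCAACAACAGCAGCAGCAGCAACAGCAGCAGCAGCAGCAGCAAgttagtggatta
Htt, chromosome 5, 34761740 to 34912534, plus strand, codons 18 to 24: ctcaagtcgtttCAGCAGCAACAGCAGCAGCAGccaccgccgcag
The coordinates are those of the genes, and each run lies in their coding exons. Maml2 had 46 codons in its run, Foxp2 40, Foxp1 37 and mouse Htt 7, and the 3 long runs shown were mixtures of CAG and CAA.

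Of the 102 genes with runs, 0 were higher and 0 lower without overlap, beside 0.990% and 0.817% of all genes, and 85 were bounded within 2-fold. Their median was 0.02, with 57 above 0 and 45 below. For the 36 genes with at least 15 codons the median was 0.06, with 23 above 0, 13 below and 26 bounded. Maml2, a coactivator of Notch signalling, had 163, 189, 149 and 191 in the SPI-24 libraries, against 182, 147, 107 and 172 in the DMSO libraries, a log2 difference of 0.21 ± 0.22. Foxp2, a forkhead transcription factor, had 259, 268, 703 and 380.5 in the SPI-24 libraries, against 159.7, 377, 318 and 504 in the DMSO libraries, with SPI-24 library 3 the highest of all. Foxp1, its relative and 1 of the medium spiny markers, had 959.6, 491, 760.4 and 1822 in the SPI-24 libraries, against 788, 2137, 831 and 1852 in the DMSO libraries, and its order followed those markers. The groups overlapped in all 3 genes, and the log2 differences were 0.24 ± 0.37 for Foxp2 and -0.50 ± 0.41 for Foxp1. Among the other genes with 15 or more codons, Med12, a Mediator subunit with a run of 33 codons, averaged 705 ± 104 with SPI-24 and 691 ± 84.4 with DMSO (SD, n = 4 each), and Ncoa6, a nuclear receptor coactivator with 32, averaged 958 ± 109 with SPI-24 and 829.8 ± 98.5 with DMSO. The differences of this class ran from -1.12 for Dlx6 to 1.03 for Amotl1, and both of these had wide intervals, -2.86 to 0.63 for Dlx6 and -0.32 to 2.37 for Amotl1.

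The human HTT transgene had 4995, 5798, 5465 and 4637 in the SPI-24 libraries, against 4679.9, 5546, 4654 and 4655 in the DMSO libraries. Mouse Htt had 1867, 2268, 2295 and 1567 in the SPI-24 libraries, against 1990.1, 1976, 1846 and 1903 in the DMSO libraries. Both overlapped between groups, with log2 differences of 0.10 ± 0.11 (95% interval -0.15 to 0.34) and 0.04 ± 0.13 (-0.24 to 0.31). Without SPI-24 libraries 2 and 3 both signs turned, to -0.017 and -0.17. Reads that mapped to more than 1 region were dropped, so stretches identical in both genes may count toward neither, and the 2 levels are not compared with each other.

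**Figure D5:**
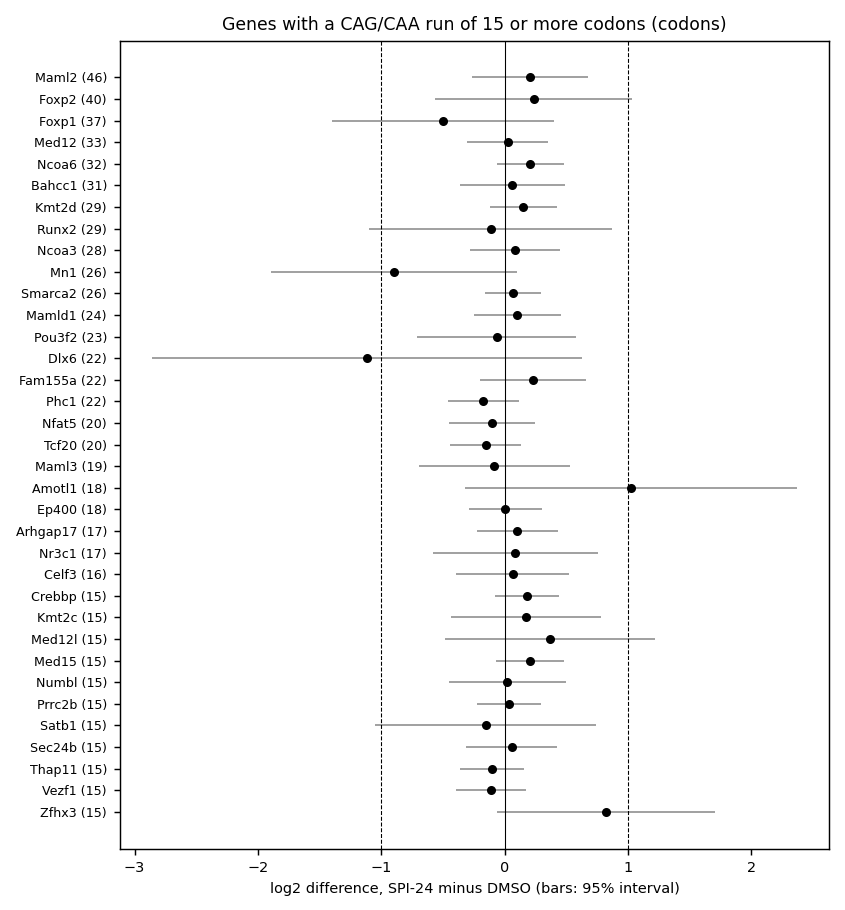
Log2 difference, SPI-24 minus DMSO, of genes with a run of at least 15 CAG or CAA codons, ordered by run length (in brackets), with bars for the 95% interval of the limma fit. The points lie on both sides of 0, and 26 intervals stay within 2-fold (dashed lines).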

How the data were processed

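RNA from striatal punches was sequenced as single reads from stranded mRNA libraries. As described in the methods and in the submitters' notes on processing, reads were trimmed by the authors with cutadapt, aligned to GRCm38 with STAR, dropped where they had several positions, counted per gene with HTSeq and normalized with DESeq2, each in a version not given in the sources used here. Deposited values are normalized counts, a signal, reads divided by a size factor. At least 99.99% of the values were whole multiples of 1 step within 0.1 step, so reads could be recovered for edgeR and DESeq2. The deposited table also holds the authors' fold changes and p-values, which were not used.

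Of 20957 gene identifiers, 20924 (99.8%) matched GENCODE M21 (GRCm38), which gave lengths, 1-based coordinates, coding sequences, the name of 1 unnamed entry (mouse Htt) and 24 names that had been turned into dates. Sequences around starts came from RefSeq (GRCm38.p6). A protein table was not used here, so glutamine runs were found as CAG or CAA codons. Genes with at least 10 normalized counts in at least 3 libraries were tested with limma (3.58.1; trend, robust) on log2(normalized count + 1), fitting all 11 libraries together with no term but the group. Genes were called at an adjusted p below 0.05 and 2-fold. Alternatives were other pseudocounts and filters, edgeR (4.0.16), DESeq2 (1.42.0), quantile normalization, the 8 libraries alone, a replicate block, sample weights, marker scores or sex as terms, and left-out libraries. The scripts were tested on simulated data in R 4.3.3.

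The members and lists were chosen with earlier results of these data known. Named genes were the 10 largest and the 10 most negative differences without overlap at a mean of at least 50 (gene models, X-inactivation and Y-linked genes left out), up to 3 members without overlap per list or else the one with the largest moderated t, up to 15 genes called in an alternative, and HTT, Supt5, Supt4a and the longest CAG runs. Of the genes this rule named, 2 are not reported here, and 1 of them is left out of a plot. No 2 libraries of a group agreed within counting noise (lowest chi-square per gene 20.8).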

Additional observations from a re-analysis of the deposited data

Results flagged for a closer look

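Values far from the other 3 of their group were looked for in 236 groups of 4 libraries (Dixon's ratio above its 95% critical value), and 21 were found. For independent groups chance alone gives about 1 in 20. These groups share libraries and many of the genes were named for their values, so that rate is no fair baseline. Aqp8, AC107453.4, Gm47588 and Trem3 were flagged with every other library of the group at 0. SPI-24 library 4 was the low value in the number of genes detected (16263), Nup35 (0.600 normalized counts), Tbc1d12 (24.7), Wnt7a (100.5), Pparg (0) and the median deviation of the Wnt list (-0.059), and the high value for Acta2 (564). SPI-24 library 3 was apart for Hdac10 (397) and Adra2b (182), SPI-24 library 2 for Trem3 (1.72) and SPI-24 library 1 for the p53 list (0.17). DMSO library 1 was apart for Psmd8 (2467), Gpi1 (11834), Egln1 (1613) and the gene model Gm47588 (2.30). DMSO library 2 was apart for Sfrp1 (551), human HTT (5546), Aqp8 (2.78) and the gene model AC107453.4 (1.85), and DMSO library 4 for Gbp2 (99.2) and Adra2b (55.2).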

How the results depend on the processing

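The labels give both groups replicate numbers 1 to 4. The deviations of same-numbered libraries from their group means correlated at 0.17, -0.16, 0.21 and 0.12 for numbers 1 to 4. Not every library correlated best with its own number, but both libraries numbered 4 were the deepest of their groups (26.0 M and 33.8 M reads). The labels do not say what the numbers stand for, and these values do not settle whether they pair the libraries. The main fit therefore had no block. With the replicate block limma called 0 genes (1032 at an unadjusted p below 0.05) and edgeR 0 (855), whereas DESeq2 with the block called 16 higher and 5 lower. Of these 21 genes, 8 were below the filter on low values and had fitted differences beyond 10 on the log2 scale, and 4 of the 13 tested had no overlap between groups. Every gene that the paper lists as changed by short-term SPI-24 treatment, 13 up and 1 down, was among the 21. DESeq2 without the block called 0 genes higher and 0 lower. The paper names DESeq2 but does not say whether its model held a replicate or batch term.

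The count of called genes was 0 in both directions under every other alternative except without SPI-24 replicate 1, where 2 were called lower. Leaving out 1 library at a time gave from 0 to 0 genes called higher, 0 to 2 called lower, 240 to 635 higher and 215 to 720 lower without overlap (fewer libraries separate more easily), 169 to 293 higher and 687 to 1553 lower past 2-fold, and 10162 to 11099 bounded within 2-fold. Without both replicate 4 libraries, 645 were higher and 625 lower without overlap and 631 lower past 2-fold. Without SPI-24 libraries 2 and 3, these were 757, 671 and, for higher genes past 2-fold, 344. The count of higher and lower genes past 2-fold was 74 and 204 with a pseudocount of 10, 452 and 1952 with no filter, 75 and 290 with a filter at 50, 407 and 410 after quantile normalization, 1075 and 1896 with DESeq2, and 753 and 2742 with DESeq2 and the replicate block. With edgeR 451 were lower. Higher genes past 2-fold were 381 with sample weights, 325 with the medium spiny score and 364 with the thalamic score. Genes lower without overlap were 279 with no filter and 61 with a filter at 50. The cause of these moves was not tested.

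Signs turned for Gabbr2 (-0.051), human HTT (-0.017), Htt (-0.17) and Foxp1 (0.060) without SPI-24 libraries 2 and 3, for Foxp2 with sample weights (-0.14), for Htt (-0.12) and Foxp1 (0.15) with the medium spiny score, for Gabbr2 (-0.11), Ntng1 (-0.067), Htt (-0.086) and Foxp1 (0.36) with the thalamic score (Foxp1 is itself part of the medium spiny score and Ntng1 of the thalamic score, which removes some of their own difference), for Foxp2 without DMSO replicate 1 (-0.088) or SPI-24 replicate 3 (-0.074), and for Htt without SPI-24 replicate 2 (-0.031) or 3 (-0.037). Leaving out 1 library at a time, Foxp2 ran from -0.088 to 0.46 and Htt from -0.037 to 0.15. Overlap counts do not depend on the test and were recomputed only where values or libraries changed. Low genes were bounded least: below a mean of 50, an interval of 1.64 on the log2 scale to either side was typical.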

Other observations

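Some genes reached a call only under an alternative. Cartpt, a neuropeptide precursor, had 296, 23.3, 18.3 and 11.4 in the SPI-24 libraries, against 198, 175, 175 and 197 in the DMSO libraries and was called lower, with Slc16a8, a monocarboxylate transporter of choroid plexus and retinal epithelium, when SPI-24 library 1 was left out. Slc16a8 had 177, 6.03, 11.8 and 4.82 in the SPI-24 libraries, against 294, 179.9, 221 and 64.6 in the DMSO libraries. In the DESeq2 fit with the replicate block, Rreb1 and Slc6a13, described above, were called higher, and so was Cacna1g. Gbx2, a homeobox factor and 1 of the thalamic markers, had 88.4, 157, 450.2 and 252 in the SPI-24 libraries, against 35.6, 11.1, 153 and 14 in the DMSO libraries. Atp2a1, a calcium pump of the sarcoplasmic reticulum, had 108, 249, 349 and 56.6 in the SPI-24 libraries, against 79.3, 17.6, 121 and 10.3 in the DMSO libraries, and Wnt3, a Wnt ligand, had 244, 446, 559 and 359 in the SPI-24 libraries, against 163, 116, 342 and 98.2 in the DMSO libraries. These 3 genes were also called higher in that fit and were highest in SPI-24 library 3, and in each of them DMSO library 3 was the highest of the controls. Gcm2, a transcription factor of the parathyroid, had 0, 7.76, 72.2 and 0 in the SPI-24 libraries, against 0, 0, 0 and 0 in the DMSO libraries, so that its call rested on libraries 2 and 3.

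The gene models Gm2774, Gm1070, Gm16169, AC107453.4 and Gm47588, called in the same fit, and also Aqp8 and Trem3, had at most 7.42 normalized counts in any of the 8 libraries. The gene model Gm43352, also called there, had 19.4, 34.5, 59.2 and 17.5 in the SPI-24 libraries, against 9.19, 2.78, 11 and 0.47 in the DMSO libraries.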
